A study of Mus musculus with 2 samples.

Results

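The cathepsin genes described here are the 10 genes Ctsa, Ctsb, Ctsc, Ctsd, Ctsf, Ctsh, Ctsk, Ctsl, Ctss and Ctsz, selected by gene symbol from the 23284 genes of the authors' deposited table. All 10 were found in it under these symbols. The study sequenced RNA of macrophages taken from the infarcted heart of C57BL/6 mice 3 days after the left anterior descending coronary artery was ligated. It holds a single library each of Ly6Chi and Ly6Clo macrophages, named by their level of the surface glycoprotein Ly6C, and asked how their transcriptomes differ. Both libraries come from ligated animals of the same strain and day, and the labels give neither the number of animals pooled nor the surface markers other than Ly6C used to collect the cells.

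Cathepsins are the main proteases of the lysosome. They are made as inactive precursors, tagged with mannose 6-phosphate in the Golgi, carried to acidic compartments and activated there by removal of a propeptide. Most are cysteine proteases related to papain, while cathepsin D is an aspartic protease and cathepsin A a serine carboxypeptidase. In macrophages they degrade engulfed cells and matrix and cut antigens and the invariant chain for presentation, and some are secreted and cleave collagen and elastin outside the cell.

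The values below are the authors' signed comparison statistic, which gives each gene a score whose unit is not stated, and its rank by size, where rank 1 is the largest. Values per library stand under codes that cannot be matched to either sample's labels and were not used, so expression levels, depth and fold changes are not analysed here. No source states which population a sign favours. Sides are therefore called negative and positive, with Ly6c2, a gene of the Ly6C antigen, at -1.78 in the authors' deposited table as a landmark of the negative side only. Since each population has 1 library, values carry no replicate check, no error and no test, and the order of members with near-equal scores is not interpreted. The score may be weighted by expression level, in which case a weakly expressed gene has a small score whatever its ratio. In bulk RNA, fewer cells of a type and less RNA per cell cannot be told apart.

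Of the 10 cathepsin genes, 8 had a negative and 2 a positive statistic in the authors' deposited table. The negative genes were Ctsl, Ctsb, Ctsd, Ctss, Ctsa, Ctsz, Ctsh and Ctsc, and the positive genes were Ctsk and Ctsf. Across all genes of the authors' deposited table, 29.6% were negative and 40.4% positive, the rest standing at exactly 0. At a size of at least 0.5, 4 members were negative against 0.988% of all genes, and 2 were positive against 3.77% of all genes. At a size of at least 1, Ctsl was negative against 0.0644% of all genes and Ctsk positive against 0.709%. At a size of at least 0.25, 6 members were negative against 4.66% of all genes and 2 positive against 9.9%. The median of the members was -0.348, and the median of the 16302 genes with a value other than 0 was 0.00512, both computed from the authors' deposited table. These shares were not matched on expression level.

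**Figure D1:**
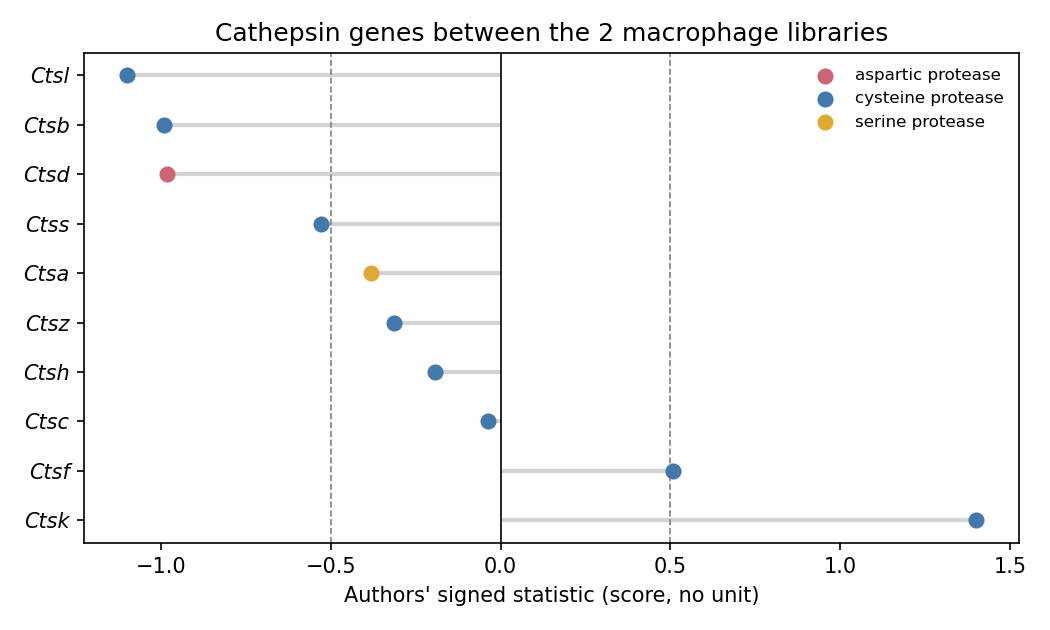
Authors' signed statistic (horizontal axis, a score with no unit) of the 10 cathepsin genes, coloured by catalytic class, with dashed lines at a size of 0.5. Ctsl, Ctsb and Ctsd lie near -1, Ctss lies just past the dashed line, Ctsa, Ctsz, Ctsh and Ctsc lie between it and 0, and Ctsf and Ctsk lie on the positive side at 0.509 and 1.40.

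The promoters of 4 members picked by hand are shown first. Ctsd and Ctsa, from the negative side, are the only members whose windows held TCACGTG, a motif described below. Ctss and Ctsk are neighbours in the genome but stood on opposite sides. Each window runs 5′ to 3′ on the strand of the gene, from 250 bases before the RefSeq transcription start to 30 bases after it, on GRCm38.p6, the same assembly as the mm10 build of the study. The Ctsd window is chr7:142387798-142388077 on the minus strand. Ctsa has a pair of start sites in the RefSeq table. The window shown, of the downstream start, was picked because it holds TCACGTG and is chr2:164833523-164833802 on the plus strand. The Ctss window is chr3:95526536-95526815 and the Ctsk window is chr3:95498960-95499239, both on the plus strand. Capitals mark matches to 1 of 5 motifs searched on both strands: TCACGTG, the core of the CLEAR element that TFEB and its relatives bind in lysosomal genes; TCATGTG, the M-box bound by MITF; TGANTCA, bound by AP-1; GAGGAAGT, bound by the myeloid factor PU.1; and GAAANNGAA, bound by interferon regulatory factors.
Ctsd: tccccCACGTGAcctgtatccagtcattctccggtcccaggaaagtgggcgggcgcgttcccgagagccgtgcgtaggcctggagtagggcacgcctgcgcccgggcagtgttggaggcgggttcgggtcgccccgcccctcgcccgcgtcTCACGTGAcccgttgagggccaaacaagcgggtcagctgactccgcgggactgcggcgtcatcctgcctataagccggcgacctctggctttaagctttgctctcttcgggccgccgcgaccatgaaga
Ctsa: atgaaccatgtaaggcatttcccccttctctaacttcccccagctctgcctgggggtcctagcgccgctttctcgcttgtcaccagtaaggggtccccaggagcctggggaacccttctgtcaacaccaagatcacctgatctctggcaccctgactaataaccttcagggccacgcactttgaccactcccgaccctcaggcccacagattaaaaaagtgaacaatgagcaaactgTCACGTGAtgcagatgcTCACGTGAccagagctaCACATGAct
Ctss: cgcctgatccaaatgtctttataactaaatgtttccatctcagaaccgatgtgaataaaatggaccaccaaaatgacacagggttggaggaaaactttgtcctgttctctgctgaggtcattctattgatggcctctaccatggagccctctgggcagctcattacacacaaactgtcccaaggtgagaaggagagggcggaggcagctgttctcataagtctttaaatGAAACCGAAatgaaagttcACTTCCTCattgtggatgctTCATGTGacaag
Ctsk: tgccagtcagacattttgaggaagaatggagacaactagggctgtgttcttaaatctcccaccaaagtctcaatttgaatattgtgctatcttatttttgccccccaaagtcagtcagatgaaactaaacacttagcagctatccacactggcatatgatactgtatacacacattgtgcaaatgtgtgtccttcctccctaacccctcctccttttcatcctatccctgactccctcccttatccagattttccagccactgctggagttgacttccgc

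In the Ctsd window, matches to TCACGTG began at bases 6 and 152, the start of transcription being base 251. In the Ctsa window they began at bases 238 and 255. The matches at base 152 of Ctsd and at both places in Ctsa extend to TCACGTGA, which reads the same on either strand. Among all 32851 RefSeq promoter windows, each 300 bases long, 3.77% held TCACGTG on either strand and 0.314% held it at 2 or more separate places. Since the Ctsa window was picked for holding the motif, these shares are no gauge of its matches. The other members with a window, Ctsc, Ctsf, Ctsk, Ctsl, Ctss and Ctsz, and the upstream start of Ctsa, held no match. The letters of GAAANNGAA occurred in Ctss alone among the member windows, from base 230, against 8.56% of all windows. GAGGAAGT occurred on the opposite strand in Ctss from base 249 and in Ctsc from base 100, against 3.2% of all windows. TCATGTG occurred in Ctss from base 269 and in Ctsa from base 272, against 3.77% of all windows, and TGANTCA in none of the member windows against 7.81%. The Ctsk window held none of the 5 motifs, and no match overlapped a match to another motif. Ctsb and Ctsh have no entry in the promoter table used. A match describes letters only and shows neither binding nor use.

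Among the endopeptidases that digest protein in the lysosome, Ctsl, Ctsb and Ctsd had the members' lowest statistics. Ctsl encodes cathepsin L, a broad cysteine endopeptidase that also activates other lysosomal enzymes, and lies at chr13:64361890-64370772. Its statistic was -1.10, rank 138 of 23284 and place 11 among the 6903 negative genes of the authors' deposited table. Ctsb, at chr14:63122462-63145923, encodes cathepsin B, which cuts within proteins and also removes dipeptides from their carboxyl ends, and had -0.991 with rank 185 in the authors' deposited table. Ctsd, at chr7:142375910-142387827, encodes the aspartic protease cathepsin D and had -0.983 with rank 192 in the authors' deposited table. Ctsb and Ctsd took places 18 and 19 on the negative side and differed by 0.00819, a difference that cannot be judged without replicates. These 3 genes lie on separate chromosomes, and Ctsl and Ctsb encode cysteine proteases while Ctsd encodes an aspartic protease.

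Ctss stood on the same side with a smaller value. It encodes cathepsin S, a cysteine protease that stays active at neutral pH and removes the last part of the invariant chain from MHC class II molecules. Ctss lies at chr3:95526786-95556405 and had -0.529 with rank 994 in the authors' deposited table. Cd74, the gene of the invariant chain, had 2.24 with rank 6 in the authors' deposited table, on the other side. The protease and its best known substrate in antigen presentation thus had scores of opposite sign. Cd74 was named after its value was seen, and 40.4% of all genes were positive and 29.6% negative. Ctsf, whose product can also act on the invariant chain, was positive as Cd74 was.

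Ctsk was the member of largest size and lay on the positive side. It encodes cathepsin K, the collagen-degrading protease of osteoclasts, which is also made by fibroblasts and some macrophages, and lies at chr3:95499210-95509387. Its statistic was 1.40, rank 60 and place 56 among 9399 positive genes of the authors' deposited table. Ctsk and Ctss follow each other on the plus strand of chromosome 3 with 17.4 kb between them, and their statistics differed by 1.93. Ctsf, at chr19:4855165-4860918, encodes cathepsin F, another papain-like endopeptidase that can act on the invariant chain in macrophages. It had 0.509 with rank 1082 in the authors' deposited table, just past the size of 0.5.

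The genes Ctsa, Ctsz, Ctsh and Ctsc encode cathepsins that trim the ends of proteins, as cathepsin B also does besides cutting within them. All 4 were negative, against 29.6% of all genes, with smaller sizes than Ctsb. Among the endopeptidase genes, Ctsl, Ctsb, Ctsd and Ctss were negative too, and Ctsk and Ctsf were positive. Ctsa, at chr2:164832872-164841032, encodes the carboxypeptidase cathepsin A, which also protects lysosomal neuraminidase and beta-galactosidase from breakdown, and had -0.383 with rank 1766 in the authors' deposited table. Ctsz, at chr2:174427494-174439039, encodes the carboxypeptidase cathepsin Z, also called cathepsin X, and had -0.313 with rank 2442 in the authors' deposited table. The aminopeptidase gene Ctsh, at chr9:90054267-90076095, had -0.192 with rank 4794 in the authors' deposited table. Ctsc, at chr7:88278024-88315861, encodes the dipeptidyl aminopeptidase that activates the serine proteases of granulocyte and lymphocyte granules, and had -0.0358 with rank 12664 in the authors' deposited table. The median size over genes with a value other than 0 was 0.110, so Ctsc alone among the members was smaller in size than that median. Values next to the size of 0.5 were those of Ctss and Ctsf just past it and Ctsa below it.

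The remaining cathepsin genes had scores at or near 0. Of the 13 others listed, 5 were positive, 1 was negative and 7 were at exactly 0 in the authors' deposited table, and none reached a size of 0.5. Among all genes, 40.4% were positive, 29.6% negative, 3.77% at 0.5 or above and 0.988% at -0.5 or below. Of the 23284 genes, 6982 were at exactly 0. Ctse, the aspartic protease cathepsin E of immune and stomach cells, had 0.0568, Ctsw, a cysteine protease gene of natural killer and cytotoxic T cells, had 0.0441 and Ctso had -0.0368 in the authors' deposited table. Ctsg, the cathepsin G gene of neutrophil granules, stood at 2.42e-06, the smallest positive value, which 841 genes of the authors' deposited table share. All 7 genes at exactly 0, Ctsj, Ctsq, Ctsr, Cts6, Cts7, Ctsm and Cts3, lie in the cluster of placental cathepsins on chromosome 13, between 61000179 and 61570170. Within this range Cts8 had 0.0313 in the authors' deposited table. Members of this cluster are close paralogs, and reads shared among them could be split by the counting, which was not tested.

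A list of genes that prepare and deliver lysosomal proteases lay mainly on the side of Ctsl, Ctsb and Ctsd. It also holds the lysosomal membrane protein genes Lamp1, Lamp2 at -0.230 and Scarb2 at -0.212, all negative, so its counts and median are not of processing and delivery alone. Of its 13 genes, 11 were negative, 4 of them at -0.5 or below, and 2 positive. Their median was -0.212 computed from the authors' deposited table. The shares of all genes were 29.6% negative, 0.988% at -0.5 or below and 40.4% positive. Lgmn, which encodes legumain, the asparaginyl endopeptidase that processes cathepsin precursors, had -0.805 in the authors' deposited table. Igf2r, the large mannose 6-phosphate receptor that carries precursors from the Golgi, had -0.785, and Gnptab, a subunit gene of the enzyme that builds the mannose 6-phosphate tag, had -0.638 in the authors' deposited table. Lamp1, a major protein of the lysosomal membrane, had -0.562 in the authors' deposited table. The 3 genes of proteins that work with cathepsin A were also negative, and the values for the authors' deposited table were -0.336 for the neuraminidase gene Neu1, -0.481 for the sulfatase gene Galns and -0.029 for the beta-galactosidase gene Glb1.

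The TFEB family, which drives lysosomal genes through the CLEAR element, had negative values. Only Tfec was larger in size than 0.110, the median size over genes with a value other than 0. Tfec had -0.21, Mitf -0.101, Tfe3 -0.0544 and Tfeb -0.0156 in the authors' deposited table. None reached a size of 0.5, and their median was -0.0778 computed from the authors' deposited table. Of all genes, 29.6% were negative and 0.988% at -0.5 or below.

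Cathepsin inhibitors lay on both sides, as the genes of the whole table did. Of 14 genes listed, 9 were positive, 4 negative and 1 at exactly 0, with a median of 0.092 computed from the authors' deposited table. The shares of all genes were 40.4% positive and 29.6% negative, with 3.77% at 0.5 or above and 0.988% at -0.5 or below. Cst7, which encodes cystatin F, an inhibitor that enters endosomes and lysosomes of immune cells, had 0.898 with rank 262 in the authors' deposited table. Cstb, the gene of the cytosolic inhibitor cystatin B, had -0.829 with rank 338 in the authors' deposited table. These were the inhibitor genes past a size of 0.5, and they stood on opposite sides. The serpin gene Serpina3g had 0.285, the stefin gene Stfa2l1 had 0.266 and Cst3, the gene of the secreted inhibitor cystatin C, had 0.231 in the authors' deposited table.

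Granule serine proteases that cathepsin C activates gave few values. Of 7 genes, Elane, Gzma, Cma1 and Mcpt4 were at exactly 0 in the authors' deposited table, as were 6982 of all 23284 genes. Prtn3 had 0.137 and Gzmb 0.0719 in the authors' deposited table, and Ctsg stood at the smallest positive value. None reached a size of 0.5. Of all genes, 40.4% were positive, 29.6% negative, 3.77% at 0.5 or above and 0.988% at -0.5 or below.

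**Figure D2:**
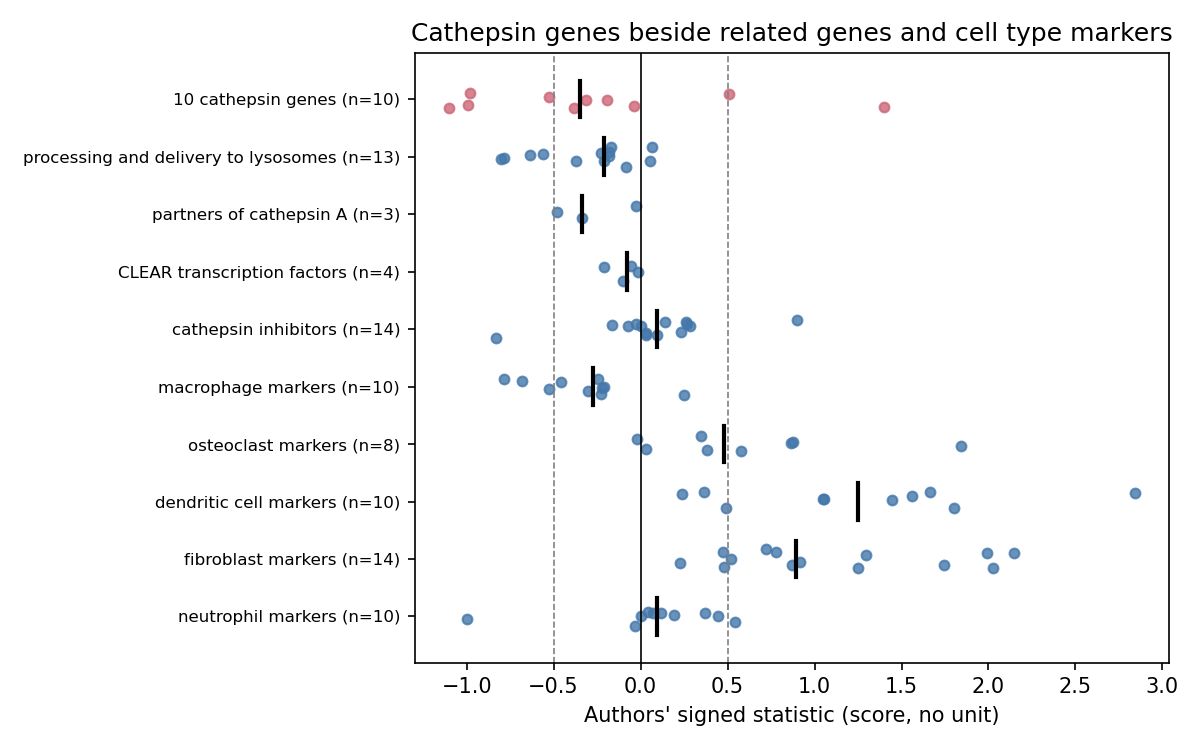
Authors' signed statistic (horizontal axis, a score with no unit) of the 10 cathepsin genes (red) and of genes of related lists and cell type markers (blue), 1 point per gene, with a black bar at the median of genes with a value other than 0 and dashed lines at a size of 0.5. Most cathepsin, processing and macrophage genes lie left of 0, and all 14 fibroblast and all 10 dendritic cell markers lie right of it, with Ctsk. Of all genes, 29.6% are negative and 40.4% positive.

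Markers of several cell types lay on the sides taken by the members. For all genes the shares were 29.6% negative, with 0.988% at -0.5 or below, and 40.4% positive, with 3.77% at 0.5 or above. Of 10 macrophage markers, 9 were negative and 3 of them at -0.5 or below, with a median of -0.275 computed from the authors' deposited table. Fcgr1 had -0.786, Cd68 -0.682, Lyz2 -0.528 and Aif1 -0.457 in the authors' deposited table, on the side of Ctsl, Ctsb and Ctsd. Cd68 itself encodes a lysosomal membrane protein. On the side of Ctsk and Ctsf, all 14 fibroblast markers had positive values, 11 of them past 0.5, and their median was 0.895 computed from the authors' deposited table. Col1a1 had 2.14, Col3a1 2.03 and Col1a2 1.99, all genes of fibrillar collagen, and the matrix gene Postn had 1.74 in the authors' deposited table. The 10 dendritic cell markers all had positive values too, 7 of them past 0.5, and their median was 1.25 computed from the authors' deposited table. Ccr7 had 2.84, Fscn1 1.8, Cd209a 1.66 and Flt3 1.56 in the authors' deposited table.

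Ctsk is also a classical osteoclast gene. Of 8 osteoclast markers, 7 had positive values, against 40.4% of all genes, and 4 of them were past 0.5, against 3.77%. The list's median was 0.480 computed from the authors' deposited table. Dcstamp, a fusion protein gene of osteoclasts that dendritic cells also express, had 1.84, the transcription factor gene Nfatc1 0.877, Ocstamp 0.866 and the proton pump gene Atp6v0d2 0.577 in the authors' deposited table. Of 10 neutrophil markers, 8 were positive and 2 negative, against 40.4% and 29.6% of all genes. Their median was 0.0954 computed from the authors' deposited table. Among the neutrophil markers Mmp8 had -0.998, S100a8 0.544, S100a9 0.446 and Cxcr2 0.373 in the authors' deposited table. No marker of these 5 cell types stood at exactly 0, but the neutrophil marker Ngp stood at the smallest positive value and the osteoclast marker Calcr at 0.0288. Levels per library were not analysed here. What part these cell types have in the statistics of Ctsk or of the negative cathepsin genes was not tested.

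Genes beside the cathepsin genes mostly stayed under a size of 0.5, as most genes of the authors' deposited table did. Each member has a nearest protein-coding gene on either side, and besides Ctsk and Ctss, which neighbour each other, this gave 18 genes. Of these, 2 reached a size of 0.5 in the authors' deposited table. Cdk20, 61.5 kb from Ctsl, had -0.598, and 0.988% of all genes were at -0.5 or below. Pltp, the phospholipid transfer protein gene that overlaps the end of Ctsa, had 0.770, and 3.77% of all genes were at 0.5 or above. Of the 15 beside a negative member, 6 were negative, against 29.6% of all genes, and of the 3 beside a positive member, 2 were positive, against 40.4% of all genes. Arnt, which ends 1.97 kb before Ctsk, had -0.208, and Hormad1, 3.27 kb after Ctss, stood at the smallest positive value in the authors' deposited table. The genes on either side of Ctsd, Ifitm10 and Syt8, had -0.035 and -0.124, and those beside Ctsf, Ccdc87 and Actn3, both had 0.0288 in the authors' deposited table. Calcr shared this value of 0.0288, and Defb42 beside Ctsb stood at the smallest positive value as Hormad1 did. The counts by sign thus include tied small scores.

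**Figure D3:**
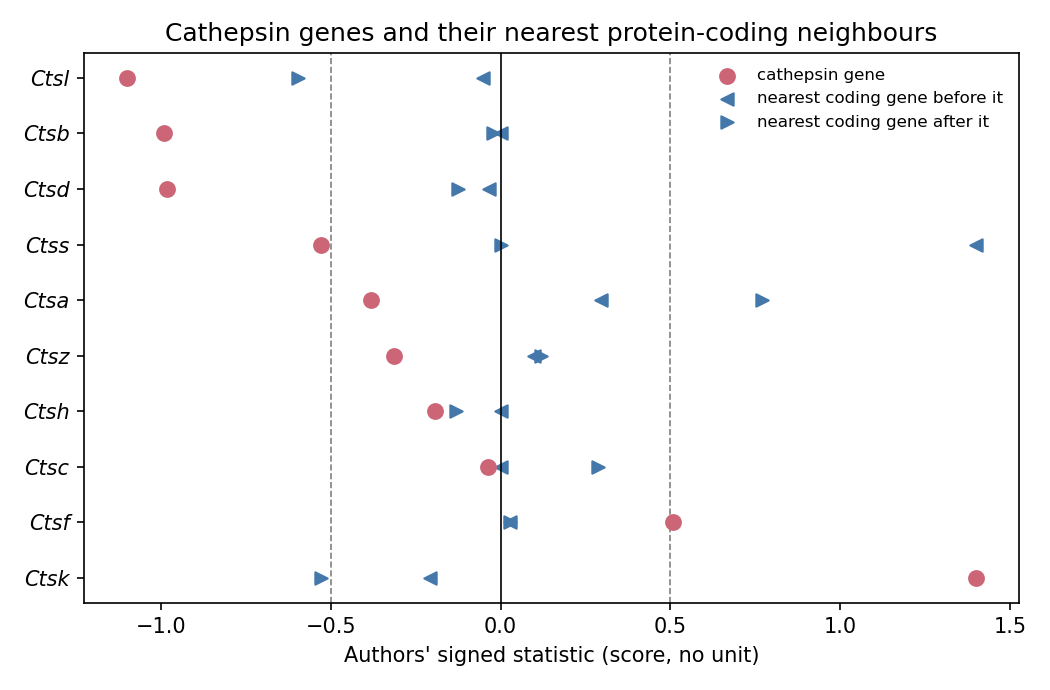
Authors' signed statistic (horizontal axis, a score with no unit) of each cathepsin gene (circle) and of the nearest protein-coding gene before (left-pointing) and after it (right-pointing) along the chromosome, with dashed lines at a size of 0.5. Apart from the pair Ctsk and Ctss, neighbours past the dashed lines are Cdk20 beside Ctsl and Pltp beside Ctsa.

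Several members share exonic sequence with other genes in the GENCODE M21 annotation of the same assembly, and the strand handling of the counting is not given in the sources used here. Ctsa overlaps Pltp and Neurl2 on the opposite strand over 10.5% and 6.87% of its exonic bases, and these had 0.770 and 0.295 in the authors' deposited table against -0.383 for Ctsa. Ctsb overlaps Fdft1, at -0.0219 in the authors' deposited table, over 12.8% of its exonic bases on the opposite strand. Ctsl overlaps the antisense gene Gm47123 over 26.8% and, on its own strand, the processed pseudogene Gm49230 over 6.09% of its exonic bases. Ctsd overlaps the gene model Gm49369 on its own strand over 34.4% of its exonic bases. Gm47123, Gm49230 and Gm49369 were not found in the authors' deposited table. Ctsz shares 10 exonic bases with Nelfcd. Ctsc, Ctsf, Ctsh, Ctsk and Ctss share no exonic base with another gene of that annotation. Reads in exonic bases shared on the same strand cannot be told apart. Those shared with the opposite strand cannot be either if strand was not used in the counting. The values of Ctsl, Ctsb, Ctsd and Ctsa are uncertain to that extent. For Ctsl and Ctsd this holds only if the counting used those gene models, which is not known.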

How the data were processed

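RNA of 1 Ly6Chi and 1 Ly6Clo macrophage library was sequenced. Per the submitters' processing notes, CASAVA 1.8.2, TopHat and the build mm10 were used, while for the counter, annotation and strand handling the sources used here name nothing. A signed statistic, a score of unstated formula, and its rank, also a score, were deposited by the authors. The rank matched the size of the statistic within 1e-06 for 23284 of 23284 genes. The 2 columns that hold values per library match no sample label and were not used, so depth was not analysed here and the planned log ratios and scalings were not run. No test was run.

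Members, lists and motifs were chosen with earlier results of these data known. Text names all members, up to 4 genes of largest size per list, inhibitor and processing genes of size 0.5 or more, Ly6c2 and neighbours. Cst3, Cd74, Lamp2, Scarb2 and genes of the other lists at or near 0 beyond that number were named after their values were seen. A listed marker gene is not reported here and was left out of its list. Counts by side, medians and the searches for the motifs other than TGANTCA were tested on simulated data. The search for TGANTCA and the count of windows with separate matches were not. Members were matched by symbol or synonym to RefSeq genes of GRCm38.p6, which gave coordinates and promoters (8 of 10 members matched, in 9 windows). Exon overlaps came from GENCODE M21. Protein identity was not computed. Tables were handled in Python 3.11.15 with pandas 2.3.3 and NumPy 2.4.6, and figures were drawn with Matplotlib 3.10.9.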

Additional observations from a re-analysis of the deposited data

How the results depend on the processing

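No paired analysis was possible because there is a single library of each kind, and without either library nothing is left to compare. At a size of at least 1, 1 member was negative (Ctsl, against 0.0644% of all genes) and 1 positive (Ctsk, against 0.709%), compared with 4 and 2 members at 0.5. At 0.25, 6 were negative (4.66% of all genes) and 2 positive (9.9%). The median of the members, -0.348, became -0.262 as a mean and -0.253 over the cysteine proteases, and shrank to -0.0363 over every cathepsin gene with a value other than 0. The sign of the median was also that of the mean in 11 of 11 lists. With members at 0 included, the median of the granule protease list went from 0.0719 to 0.0, that of the other cathepsins from 0.0157 to 0.0 and that of the inhibitors from 0.092 to 0.0604. With 1 library per population and genes chosen by hand, no interval around these medians measures their error. The planned pseudocounts and scalings, which need levels in each library, were not run.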
